A study of Mus musculus with 11 samples.

Results

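Reactive astrocyte genes are a set of 10 mouse genes that are widely used to recognise astrocytes responding to injury: Gfap, Vim, Serpina3n, Lcn2, Cd44, Timp1, Steap4, Aspg, Nes and Cp. They were taken by symbol, and each of the 10 matched exactly 1 gene row of the files. Their unique molecular identifiers (UMIs, which count captured RNA molecules) were summed in each library over 3045 astrocytes, out of 124491 cells that passed the filters, and over the other cell types that markers could name. Astrocytes are the star-shaped support cells of the brain, which take up glutamate, buffer ions and water and contact blood vessels. After ischaemia they become reactive: they thicken their intermediate filament skeleton and secrete acute-phase proteins, protease inhibitors and matrix components, and near a lesion they help to build the glial scar. Most genes of the set are not restricted to astrocytes, since vessels, ependyma and blood cells also use many of them.

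The cells came from the brains of 11 mice, 1 library per mouse, processed with 10x Genomics 3′ single-cell RNA sequencing. The sham + WT group held 3 wild-type mice after sham surgery, and the sham + Lrg1-/- group held 3 mice lacking Lrg1, a secreted leucine-rich glycoprotein, after the same surgery. The MCAO/R + WT group held 2 wild-type mice and the MCAO/R + Lrg1-/- group 3 knockout mice after middle cerebral artery occlusion followed by reperfusion (MCAO/R), a model of stroke with restored flow. The wild-type mice were male C57BL/6 mice from a university supplier. The knockouts were a conventional deletion in every cell, from another source and on a C57BL/6N background. The study also states different ages for wild-type and knockout mice. Genotype thus cannot be told apart from supplier, substrain and stated age. The reperfusion time of the sequenced mice is not in the sample labels. Lrg1 itself had 0 UMIs in 5 knockout libraries and 1 UMI in the library labelled MCAO/R + Lrg1-/- replicate 5, whereas wild-type libraries held 1.71–6.29 CPM after sham and 119–137 CPM after MCAO/R, in counts-per-million units (CPM, the UMIs of a gene relative to all UMIs).

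Astrocytes were the cells of 1 cluster that scored highest for the markers Aqp4 (a water channel), Aldh1l1 (a folate enzyme), Gja1 (the gap junction protein connexin 43) and Slc1a2 (the glutamate transporter GLT-1). Of these, Slc1a2 was among the 10 leading genes of the cluster, behind Gpc5. UMIs of at least 3 of the 4 markers were found in 3142 cells, of which 1939 lay in this cluster. Every cell type name below means a cluster that resembled that type by its markers. The number of astrocytes was 755, 456 and 331 in the sham + WT replicates 1, 2 and 3, and 98, 63 and 69 in the sham + Lrg1-/- replicates 1, 2 and 5. It was 215 and 637 in the MCAO/R + WT replicates 1 and 2, and 87, 139 and 195 in the MCAO/R + Lrg1-/- replicates 1, 2 and 5. Levels are given in CPM, here relative to all UMIs of that cell type in that library. A CPM of a sum over cells cannot tell more RNA per cell from more cells that hold the RNA.

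The wild-type and knockout libraries stood apart in genes outside the set. The 4 genes that marked the astrocytes (the gate genes) together reached 8577–11430 CPM in astrocytes of the 5 wild-type libraries and 2353–5882 CPM in those of the 6 knockout libraries. In the same astrocytes the 5 erythroid markers summed to 12.2–47.4 CPM in wild-type and 12120–54443 CPM in knockout libraries, and the 5 choroid plexus markers to 216–585 against 5314–35889 CPM, with every marker of both lists detected in each library. Neutrophil markers summed to 22.9–28.5 CPM in wild-type astrocytes, to 36.9–118 in the sham + Lrg1-/- group and to 30.3–1387 in the MCAO/R + Lrg1-/- group. The part of such RNA in the differences between genotypes was not tested, and genotype cannot be told apart from these library differences. Comparisons between MCAO/R and sham were made within a genotype. Such RNA could differ there too, as the neutrophil markers did in the knockouts, and its part in those comparisons was not tested.

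Of the 5 members that rose in wild-type astrocytes after MCAO/R, the promoters of Gfap, Serpina3n and Timp1 are shown, because the 250 bases upstream of their RefSeq start sites hold no annotated exon. The sequences come from RefSeq on GRCm38.p6, the build that matches mm10, and are written 5′ to 3′ on the strand of the gene, ending at the base before the start site. Capitals mark a match to the NF-kB motif on either strand (GGG, any 3 bases, then TTCC), and a promoter without capitals had none. Gfap lies on the minus strand at chr11:102897201-102897450, Serpina3n on the plus strand at chr12:104406458-104406707 and Timp1 on the plus strand at chrX:20869916-20870165.
Gfap: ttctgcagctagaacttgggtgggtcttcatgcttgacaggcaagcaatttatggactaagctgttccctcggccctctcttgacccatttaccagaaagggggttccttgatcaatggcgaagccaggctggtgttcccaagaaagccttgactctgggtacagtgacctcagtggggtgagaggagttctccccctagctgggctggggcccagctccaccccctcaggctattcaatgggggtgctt
Serpina3n: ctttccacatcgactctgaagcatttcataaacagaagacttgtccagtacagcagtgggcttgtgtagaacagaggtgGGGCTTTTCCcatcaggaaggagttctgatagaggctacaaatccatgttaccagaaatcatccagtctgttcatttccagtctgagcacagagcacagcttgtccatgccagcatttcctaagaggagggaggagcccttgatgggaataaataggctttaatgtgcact
Timp1: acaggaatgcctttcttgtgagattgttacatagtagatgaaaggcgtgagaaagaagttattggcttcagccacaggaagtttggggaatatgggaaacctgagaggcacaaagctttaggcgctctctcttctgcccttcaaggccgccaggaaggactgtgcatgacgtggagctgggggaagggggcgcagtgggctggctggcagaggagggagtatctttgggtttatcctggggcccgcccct
The capitals in Serpina3n, GGGCTTTTCC, lie 171 to 162 bases before the start site. Among the 10 members, NF-kB matches were found upstream of the RefSeq starts of Vim, Serpina3n and Steap4, whereas 4.65% of 32851 RefSeq promoter windows of the same 250 bases held one. The STAT motif TTCNNNGAA was found upstream of Steap4 and in 7.02% of the windows, and the AP-1 motif TGANTCA upstream of Cp and in 6.75%. In the GENCODE annotation the genes Gfap and Vim begin farther upstream, so that their windows, with the Vim match, lie inside the longer gene span given there. These matches describe letters in a window and not the binding of a factor.

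The first question was how the genes differed between MCAO/R and sham in wild-type astrocytes. Of the 9 members with enough counts to be tested, 5 rose (Gfap, Vim, Serpina3n, Lcn2 and Timp1) and none fell, at an adjusted p below 0.05 in edgeR's quasi-likelihood test over 11289 genes. Over all genes tested, 1.50% rose and 0.700% fell, 2.20% in all. The median log2 fold change was 3.01 over the 9 members and 0.01 over all genes. The filter on low counts used the libraries of all 4 groups. Timp1 and Lcn2 had only 4 and 6 UMIs in sham + WT astrocytes, so a fall could hardly have been found for them. With only the 2 groups compared in the fit, 8 members were tested, and Timp1 was not among them. The 2 MCAO/R + WT libraries were far apart, with replicate 1 above replicate 2 for all 10 members.

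The intermediate filament genes were led by Gfap, whose product is the defining filament of reactive astrocytes. Gfap stood at 70.8, 119 and 133 CPM in the sham + WT group and at 1461 and 282 CPM in the 2 MCAO/R + WT libraries. Both MCAO/R libraries were thus above every sham library, and the log2 fold change was 3.01 ± 0.60 (SE; adjusted p = 0.0245). Vim, the vimentin filament that assembles with GFAP, was at 116, 73.5 and 103 CPM after sham and at 531 and 181 CPM after MCAO/R, a log2 fold change of 1.86 ± 0.42 (adjusted p = 0.0389). Nes encodes nestin, a filament of neural progenitors that reactive astrocytes can take up again. Its levels were 17.7, 11.4 and 11.5 CPM against 37.3 and 11.2 CPM, so that the groups overlapped and the log2 fold change of 0.77 ± 0.71 did not pass the test (adjusted p = 0.665).

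Of the genes for secreted proteins, Lcn2, Serpina3n and Timp1 rose and Cp did not pass the test. Lcn2 encodes lipocalin-2, which binds bacterial iron carriers and is an acute-phase protein. In sham + WT astrocytes it had 1.39 CPM in replicate 1 and no UMI in replicates 2 and 3, whereas the MCAO/R + WT libraries had 596 and 45.9 CPM. The log2 fold change was 9.15 ± 1.15 (adjusted p = 0.00188), a fitted value against a group with only 6 Lcn2 UMIs. Over all cells of the same MCAO/R + WT libraries Lcn2 was at 1131 and 602 CPM, above the astrocyte levels. Serpina3n, an inhibitor of serine proteases, rose from 3.02, 2.80 and 8.06 CPM to 519.8 and 68.2 CPM, with a log2 fold change of 6.02 ± 0.77 (adjusted p = 0.00188). Timp1, an inhibitor of matrix metalloproteinases, was at 0.465, 0.233 and 0.310 CPM after sham, 4 UMIs in all, and at 149.7 and 1.28 CPM after MCAO/R. Its log2 fold change of 7.54 ± 1.50 (adjusted p = 0.0245) rested on MCAO/R + WT replicate 1, and it was 1.76 without that library (adjusted p = 0.723). Cp encodes ceruloplasmin, a copper-bearing ferroxidase, and its 30 and 11.4 CPM after MCAO/R were both above the 10.2, 6.07 and 7.44 CPM after sham. The log2 fold change of 1.33 ± 0.57 did not pass the test (adjusted p = 0.278).

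The other 3 genes had sham levels of at most 15.5 CPM in wild-type astrocytes. Cd44, the receptor for hyaluronan and osteopontin, was at 14.9, 13.1 and 15.5 CPM after sham and at 243 and 10.6 CPM after MCAO/R. The groups overlapped because replicate 2 was below every sham library, and the log2 fold change of 3.10 ± 0.87 did not pass edgeR's test (adjusted p = 0.0927). Aspg, which encodes an asparaginase, had 2.32, 2.80 and 4.96 CPM against 46.2 and 4.65 CPM, a log2 fold change of 2.87 ± 0.76 that did not pass either (adjusted p = 0.0811). DESeq2 called both, Cd44 at an adjusted p of 0.0331 and Aspg at 0.0277, and 7 members in all. The share of all genes that DESeq2 called is not given here, so its counts of members have no background. Steap4, a metalloreductase, was too sparse to be tested, with 1 UMI in all sham + WT astrocytes and 15.8 and 1.12 CPM after MCAO/R. The ratio of its pooled counts was 64.2, with a 95% counting interval of 11.0–2590 that covers counting error only.

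**Figure D1:**
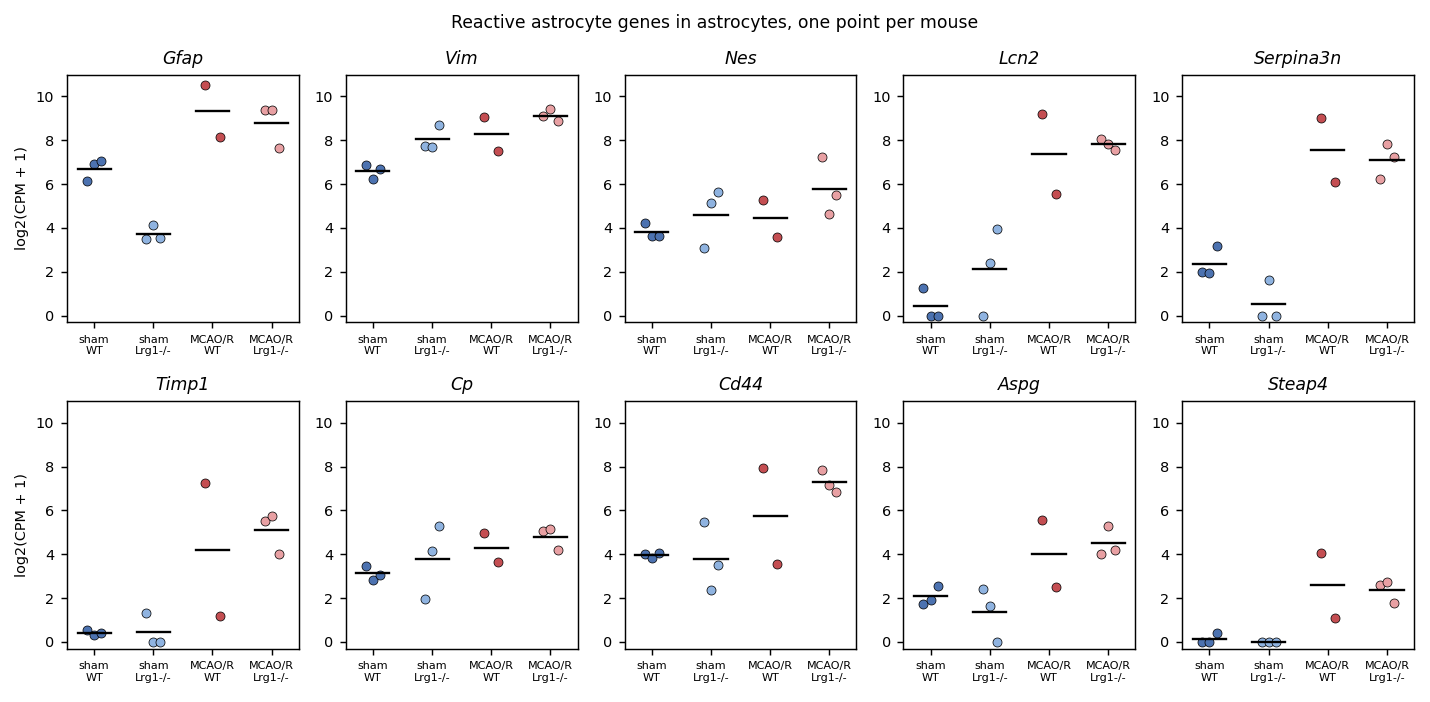
Levels of the 10 genes in astrocytes, as log2(CPM + 1) on the vertical axis, with 1 point per mouse and a bar at the mean of the log values in each of the 4 groups. In Gfap, Vim, Serpina3n, Lcn2 and Timp1 every MCAO/R point lies above the sham points of its genotype, and the 2 MCAO/R + WT points are far apart, as in Timp1 at 149.7 and 1.28 CPM.

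Several calls in wild-type astrocytes depended on single libraries and settings. Serpina3n and Lcn2 kept adjusted p-values below 0.05 without either MCAO/R + WT library: their log2 fold changes were 3.93 and 6.35 without replicate 1 and 6.85 and 10.01 without replicate 2. Gfap fell to 1.39 (adjusted p = 0.347) and Vim to 0.89 (adjusted p = 0.519) when replicate 1 was left out, and neither passed. Gfap, Vim and Timp1 also missed the threshold when any 1 of the 3 sham + WT libraries was left out. The Vim call was also lost with doublets kept, at clustering resolution 0.3, with a gate per cell, with the replicate block, with only the 2 groups in the fit and without MCAO/R + Lrg1-/- replicate 2, 10 of 21 alternatives in all, that of Gfap with the replicate block and the 2 groups alone, and that of Timp1 with the replicate block. Without replicate 2, 8 members were called, among them Cd44 at 4.06 (adjusted p = 0.000382) and Aspg at 3.78 (adjusted p = 0.000633). In both settings the lone MCAO/R + WT library was assumed to vary as the other groups did.

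In knockout mice the same comparison found the same direction for all 9 tested members. Gfap and Serpina3n rose and none fell, whereas 0.496% of all genes rose and 0.275% fell, 0.771% in all. The median log2 fold change was 3.20 over the 9 members and -0.01 over all genes. Serpina3n, Timp1, Aspg and Lcn2 had 1, 1, 4 and 9 UMIs in all sham + Lrg1-/- astrocytes, so a fall could hardly have been found for them. Gfap stood at 10.3, 16.8 and 10.5 CPM in the sham + Lrg1-/- group and at 658, 674 and 198 CPM in the MCAO/R + Lrg1-/- group, which did not overlap. Its log2 fold change was 5.27 ± 0.75 (adjusted p = 0.0227). Serpina3n had a single UMI among all sham + Lrg1-/- astrocytes and 74.1, 225 and 149 CPM after MCAO/R. The ratio of pooled counts was 259 (95% counting interval 46.1–10242), and the fitted log2 fold change was 7.72 ± 1.36 (adjusted p = 0.0334). Both calls were lost when MCAO/R + Lrg1-/- replicate 2 or sham + Lrg1-/- replicate 1 or 2 was left out, and that of Serpina3n also without sham + Lrg1-/- or MCAO/R + Lrg1-/- replicate 5, although Gfap stayed at a log2 fold change of 4.24 or more in all 21 alternatives.

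The other 7 tested members in knockout astrocytes were higher after MCAO/R by estimates that did not pass edgeR's test, and Steap4 was too sparse to be tested. The test took its spread from all 4 groups, the MCAO/R + WT libraries that were far apart among them. With only the 2 groups compared in the fit, 4 of 7 tested members were called in the knockouts and 2 of 8 in the wild type. The counts of 2 and 5 calls therefore do not rank the genotypes. DESeq2 also called Lcn2 (adjusted p = 0.0401), Cd44 (0.0391) and Timp1 (0.0240), 5 members in all, and Lcn2 was called in 8 of 21 alternatives, DESeq2 among them. Lcn2 was at 0, 4.21 and 14.7 CPM after sham and at 264, 228 and 187 CPM after MCAO/R, without overlap, and its log2 fold change of 5.22 ± 1.10 lay just outside the threshold (adjusted p = 0.0531). Over all cells of these MCAO/R libraries Lcn2 was at 312, 660.1 and 214 CPM. Vim was at 211, 206 and 413 CPM against 546, 686 and 466 CPM (log2 fold change 0.94 ± 0.39, adjusted p = 0.238). Cd44 was at 42.8, 4.21 and 10.5 CPM against 231, 144 and 112 CPM (2.85 ± 0.97, adjusted p = 0.165). All MCAO/R libraries thus stood above all sham libraries for these 3 genes as well. Timp1 went from 1 UMI in the whole sham group to 45.5, 52.0 and 14.9 CPM, a ratio of pooled counts of 60.6 (95% counting interval 10.6–2420). Aspg was at 4.42, 2.10 and 0 CPM against 15.2, 38.4 and 17.4 CPM, also without overlap. Steap4 had no UMI in sham + Lrg1-/- astrocytes and 5.05, 5.65 and 2.48 CPM after MCAO/R, at least 2.37-fold above a floor of 3 counts over the group. Nes (7.37, 33.7 and 48.5 against 152, 23.7 and 44.6 CPM) and Cp (2.95, 16.8 and 37.9 against 32.0, 35.1 and 17.4 CPM) overlapped between the groups.

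Within each genotype Gfap, Vim, Serpina3n, Lcn2, Timp1 and Steap4 had every MCAO/R library above every sham library of the genotype. In wild-type mice Cp did so too, 7 of the 10 members in all, where 21.0% of all genes tested in astrocytes showed this pattern. In knockout mice Cd44 and Aspg did, 8 of the 10, where 12.8% of the genes tested showed it. These comparisons share no libraries.

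**Figure D2:**
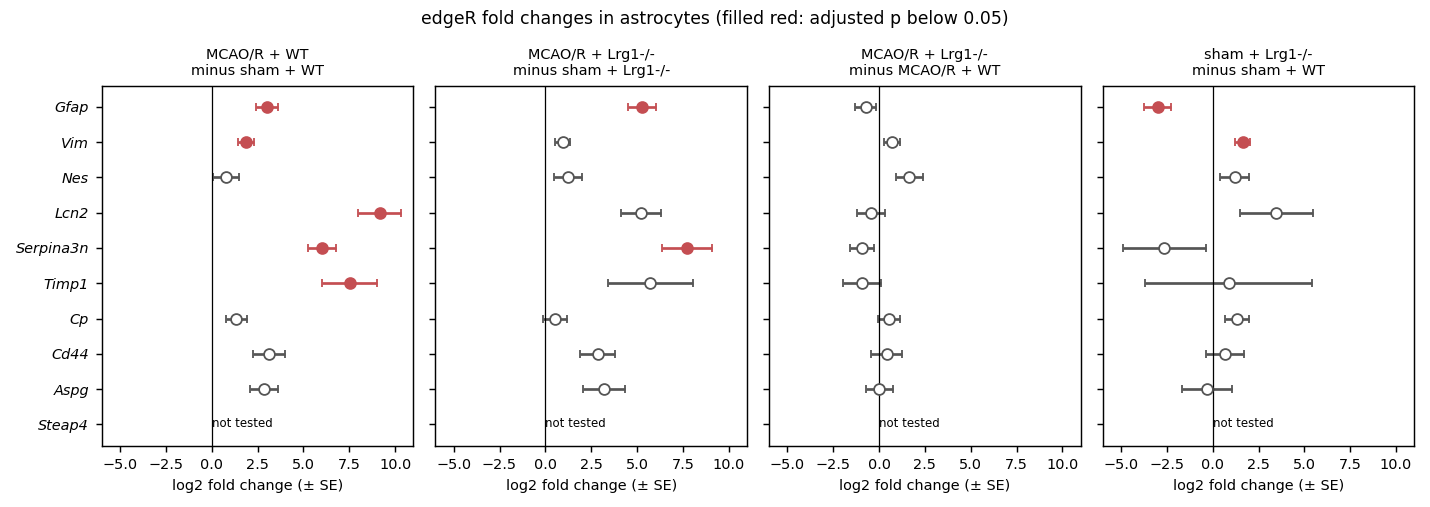
Log2 fold changes in astrocytes (horizontal axis, ± SE) from edgeR for each gene (vertical axis) in 4 comparisons, where filled red points have an adjusted p below 0.05 and open points do not. The left panels compare MCAO/R with sham within wild-type (5 filled points) and knockout mice (2 filled points), and the right panels compare genotypes after MCAO/R (none filled) and after sham (Gfap at -2.99 and Vim at 1.63 filled).

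The next question was whether the genes differed between knockout and wild-type mice. After MCAO/R none of the 9 tested members passed edgeR's test in astrocytes, while 4.96% of all genes did (2.65% higher in the knockouts and 2.31% lower), and DESeq2 likewise called 0. At an unadjusted p below 0.05 in edgeR's test there was 1 member, Nes (log2 fold change 1.65 ± 0.74, adjusted p = 0.213), beside 2514 of all 11289 genes. For no member did the 2 groups separate completely in CPM, a pattern that 16% (knockouts higher) and 20.1% (knockouts lower) of all genes tested showed. Per 1000 UMIs of the 4 gate genes, which chose the cells and so give only a description, the order differed: Vim, Cd44, Nes and Cp were higher in every MCAO/R + Lrg1-/- library than in both wild-type libraries. On that scale Gfap was at 140.4, 147 and 68.1 in the knockouts and 143 and 24.6 in the wild type, and Lcn2 at 56.4, 49.9 and 64.3 against 58.4 and 4.02. In CPM the estimates for the other members ran from -0.94 ± 1.05 in Timp1 to 0.71 ± 0.43 in Vim, and Gfap was at -0.73 ± 0.59 and Lcn2 at -0.45 ± 0.76. The SE of these members was 0.43 or more on the log2 scale. For some members the direction followed the wild-type library used, though the estimates of Vim (0.10 to 1.65) and Nes (0.52 to 2.66) were higher in the knockouts in all 21 alternatives. Without MCAO/R + WT replicate 1, Lcn2 (2.31, adjusted p = 0.0483), Cd44 (3.93, adjusted p = 0.00844) and Timp1 (4.81, adjusted p = 0.0105) were called higher in the knockouts, and without replicate 2, Timp1 was called lower (-1.99, adjusted p = 0.0405).

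After sham surgery 2 members differed between genotypes in astrocytes, where 4.54% of all genes did (2.75% higher in the knockouts and 1.78% lower). Gfap was lower in the knockouts, at 10.3, 16.8 and 10.5 CPM against 70.8, 119 and 133 CPM, with a log2 fold change of -2.99 ± 0.74 (adjusted p = 0.0425). Vim was higher in the knockouts, at 211, 206 and 413 against 116, 73.5 and 103 CPM, with a log2 fold change of 1.63 ± 0.39 (adjusted p = 0.0391). Choroid plexus and erythroid markers differed in the same cells, as given above. Of the 4 gate genes 1 was called lower in the knockouts, with a median log2 fold change of -1.19 over the 4. Per 1000 gate UMIs, a description only, Gfap was at 2.47, 2.86 and 4.48 in the knockouts and 7.70, 11.7 and 15.5 in the wild type. On that scale Vim was at 50.4, 35.1 and 175 against 12.6, 7.23 and 12.1. Vim was also higher in the knockouts in microglia (0.98 ± 0.28, adjusted p = 0.0178) and choroid plexus cells (1.43 ± 0.27, adjusted p = 0.00475). Both astrocyte calls rested on few libraries, and the adjusted p of Gfap exceeded 0.05 when any 1 of the 6 sham libraries was left out. Of 21 alternatives, 11 ended the call of Gfap and 9 that of Vim. The interaction, which asks whether the change with MCAO/R differed between genotypes, called none of the 9 members and none of the 11289 genes by edgeR, with 725 genes at an unadjusted p below 0.05, among them Gfap (2.26 ± 0.98, adjusted p = 0.769). DESeq2 called 0 members in it.

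Shares of astrocytes with a UMI were compared after each cell had been thinned to 1000 UMIs, with microglia as a cell type that should lack Gfap. Gfap was found in 8.20% of sham + WT astrocytes (mean of libraries, range 4.90–12.7%) and in 19.5% and 53.0% of those of the MCAO/R + WT libraries. In microglia of the MCAO/R + WT group the share was 0.292% and 0.362%. In the knockouts it was 0–1.59% of astrocytes after sham and 13.3–34.5% after MCAO/R, against 1.05–1.82% of microglia. For Lcn2 the astrocyte shares after MCAO/R were 4.71% and 20% in the wild type and 6.90–12.2% in the knockout, while microglia had 4.01% and 8.51%, and 3.03–9.88%. The lower wild-type library, replicate 2, therefore had Lcn2 in astrocytes at a share close to that in microglia, and its 45.9 CPM in astrocytes stood beside 44.1 CPM in microglia and 35.9 CPM in oligodendrocytes. Serpina3n was found in 5.18% and 26.0% of MCAO/R + WT astrocytes against 0.772% and 1.0% of microglia and 7.40% and 16.5% of oligodendrocytes, so the lower astrocyte share was below both oligodendrocyte shares. In the MCAO/R + Lrg1-/- libraries it was in 11.3–18.7% of astrocytes, 11.4–25.3% of oligodendrocytes and 1.82–3.78% of microglia. Without thinning, the mean share of MCAO/R + WT cells with Lcn2 was 47.6% of astrocytes and 45.1% of microglia, whose median depths were 9101–11598 and 9115–10610 UMIs per cell.

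The UMIs of most of the 10 genes came largely from cells other than astrocytes, with Gfap and Aspg as exceptions in wild-type mice. With the libraries of a group pooled, astrocytes held 56.8% of the Gfap UMIs of wild-type mice after sham (46.0–63.3% by library) and 61.7% after MCAO/R (55.0–65.4%), and 73.1% and 59.6% of the Aspg UMIs. In the MCAO/R + Lrg1-/- group they held 7.44% of the Gfap UMIs (3.0–17.5% by library), where ependymal cells held 38.8% (18.4–44.2%). The ependymal cells of that group numbered 52, 211 and 1369 in replicates 1, 2 and 5, and astrocytes made up 0.765% of its cells, below the 4.04% of the MCAO/R + WT group. Of the Timp1 UMIs of the MCAO/R + WT group they held 14.9%, but 17.8% in one library and 1.68% in the other, and of the other 7 genes 0.542–6.54% of the group's UMIs. Endothelial cells held 89.4% of the Lcn2 UMIs and 53.1% of the Serpina3n UMIs of the MCAO/R + WT group, and their shares for the MCAO/R + Lrg1-/- group were 53.5% and 18.0%. Cells without a name held 24.2% of the Lcn2 UMIs in the latter group and 4.48% in the former.

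**Figure D3:**
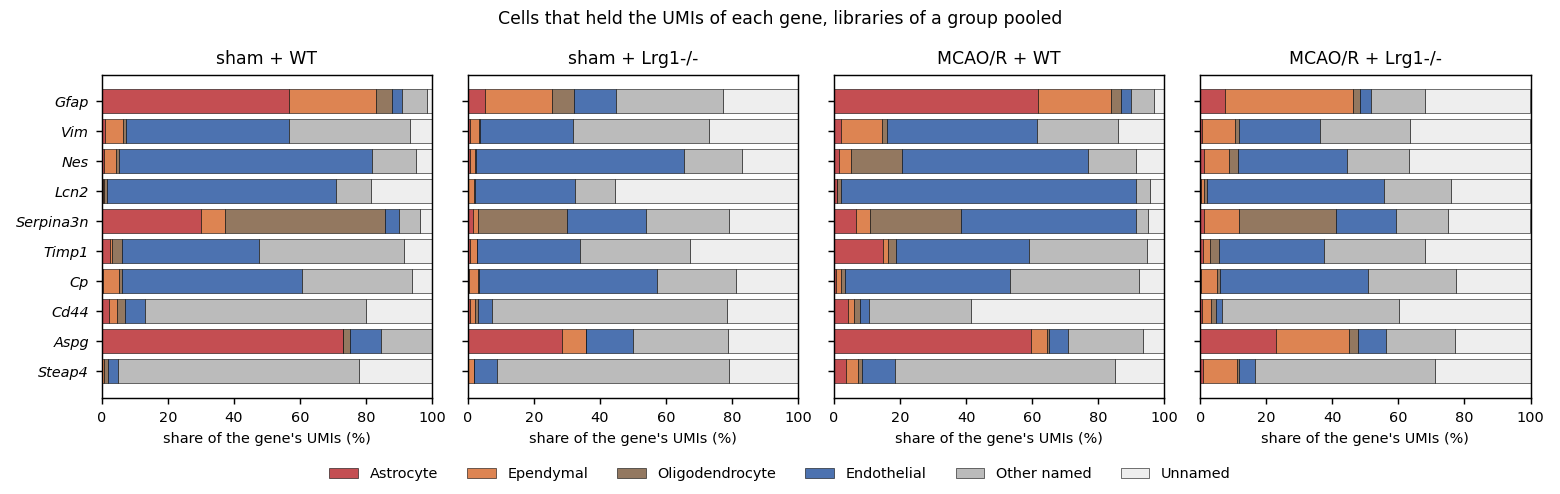
Share of the UMIs of each gene (horizontal axis, in percent) held by astrocytes, ependymal cells, oligodendrocytes, endothelial cells, other named cells and unnamed cells, with the libraries of a group pooled, in 4 panels for the 4 groups. Astrocytes make up most of the Gfap bar in the wild-type panels (56.8% and 61.7%) and little of it in the knockout panels (5.17% and 7.44%), and endothelial cells make up 89.4% of the Lcn2 bar in the MCAO/R + WT panel.

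Pairs of a member and a cell type other than astrocytes were tested in the same way. After MCAO/R in the wild type, 40 of 111 such pairs rose and 2 fell, over 14 cell types, while of all pairs of a gene and a cell type 3.67% rose and 3.77% fell. In the knockouts 44 of 109 pairs rose and 1 fell, where 4.68% of all pairs rose and 4.05% fell. The wild-type count was 24 higher and 1 lower of 104 without MCAO/R + WT replicate 1, and 25 higher and 1 lower of 110 without sham + WT replicate 1. The knockout count was 28 higher and 1 lower of 91 without sham + Lrg1-/- replicate 1, and 28 higher and 0 lower of 109 without sham + Lrg1-/- replicate 2. Lcn2 rose in 11 of 14 cell types in the wild type and in 8 of 14 in the knockout, and Serpina3n in 9 of 12 and 11 of 13. Gfap rose in 5 of 11 and 8 of 11 types, including microglia, where it reached 3.08 and 5.13 CPM in the MCAO/R + WT group against 0.650–0.941 CPM after sham. Astrocytes were above microglia in Gfap in all 11 libraries, and the part of free RNA in the rise outside astrocytes was not tested.

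Endothelial cells, which line the vessels, had the highest mean Lcn2 level of the named cell types in the MCAO/R + WT group, and neutrophils in the MCAO/R + Lrg1-/- group. Lcn2 stood at 9.47, 12.4 and 20.8 CPM in endothelium of the sham + WT group and at 2947 and 3734 CPM in the MCAO/R + WT libraries (log2 fold change 7.91 ± 0.96, adjusted p = 0.000152). In the knockouts it was at 15.1, 47.7 and 217 CPM after sham and at 613, 1154 and 1966 CPM after MCAO/R (3.73 ± 0.78, adjusted p = 0.00665). Endothelium was above astrocytes for Lcn2 in all 11 libraries. Neutrophils, which store lipocalin-2 in their granules, were at 2050 and 2426 CPM in the MCAO/R + WT group and at 1334 and 4443 CPM in the 2 MCAO/R + Lrg1-/- libraries with at least 20 of them. Serpina3n in endothelium went from 0.0349, 0.0996 and 0.183 CPM to 174 and 367 CPM in the wild type (11.32 ± 0.70, adjusted p = 1.08e-06). After MCAO/R it was lower in knockout than in wild-type endothelium, at 41.9, 90.8 and 139 CPM (-1.56 ± 0.40, adjusted p = 0.0161), with no overlap between the groups. The interaction called no pair of a member and a cell type of 104 tested, where 0.931% of all pairs were higher and 0.752% lower.

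Oligodendrocytes, the myelin-forming cells, had more Serpina3n than astrocytes in 4 of the 5 MCAO/R libraries. Their levels were 1.06, 2.0 and 2.24 CPM in the sham + WT group and 102 and 271 CPM in the MCAO/R + WT libraries (log2 fold change 6.65 ± 0.55, adjusted p = 2.76e-06). In the knockouts they were 1.99, 3.13 and 3.19 CPM after sham and 203, 402 and 669 CPM after MCAO/R (7.15 ± 0.65, adjusted p = 6.48e-05), and the genotypes after MCAO/R differed by 1.25 ± 0.43 (adjusted p = 0.0485), with overlapping libraries. Microglia of the MCAO/R libraries had 8.06–28 CPM, below the oligodendrocyte level in each group.

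Nes went in opposite directions in different cell types. In oligodendrocytes it rose from 3.0, 3.29 and 3.73 CPM to 30.5 and 36.0 CPM in the wild type (log2 fold change 3.23 ± 0.29, adjusted p = 5.09e-06). In the knockouts it rose from 3.77, 4.97 and 5.01 CPM to 6.88, 10.8 and 19.3 CPM (1.55 ± 0.37, adjusted p = 0.0156), and after MCAO/R the knockouts were lower than the wild type (-1.30 ± 0.28, adjusted p = 0.00499). Endothelial cells, which held 76.8% of the Nes UMIs of the sham + WT group, showed a fall from 221, 255 and 256 CPM to 97.5 and 108 CPM (-1.22 ± 0.28, adjusted p = 0.00953). The knockout endothelium fell from 158, 164 and 193 CPM to 57.3, 81.8 and 147 CPM (-0.89 ± 0.25, adjusted p = 0.0253). Nes also fell in wild-type vascular smooth muscle (-0.61 ± 0.16, adjusted p = 0.0389).

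Cp had its highest mean level in fibroblasts in the wild type, at 937 CPM after sham (range 522–1290) and 1666 and 1716 CPM after MCAO/R, a log2 fold change of 0.87 ± 0.40 that did not pass the test (adjusted p = 0.391). Ependymal cells had 124–182 CPM in the sham + WT group, and border-associated macrophages a mean of 397 CPM. Pericytes, the contractile cells around capillaries, went from 316, 439 and 442 CPM to 934 and 1078 CPM in the wild type (1.35 ± 0.28, adjusted p = 0.0256). Vascular smooth muscle went from 51.1, 55.1 and 64.6 CPM to 355 and 416 CPM (2.79 ± 0.31, adjusted p = 0.000338), and in the knockouts from 31.6, 46.8 and 50.9 CPM to 130.2, 304 and 371 CPM (2.65 ± 0.30, adjusted p = 0.000872). After MCAO/R pericytes of the knockouts had less Cp than those of the wild type, at 312, 379.5 and 555 CPM (-1.16 ± 0.28, adjusted p = 0.0167). Astrocytes stood at 37.9 CPM or less in all libraries. Pericytes held 56.6% of the Steap4 UMIs of wild-type mice after sham and 54.4% after MCAO/R. Its pericyte levels were 64.2, 96.1 and 116 CPM after sham and 130.3 and 161 CPM after MCAO/R, and no call was made in pericytes. In the MCAO/R + Lrg1-/- group neutrophils held the largest share, 37.0%.

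Fibroblasts, which make up the meninges and the sheath of larger vessels, had the highest mean Timp1 level of the named types in the sham + WT group and in both MCAO/R groups. It was 12.4, 12.9 and 42.6 CPM in the sham + WT group and 432 and 627 CPM in the MCAO/R + WT group (4.44 ± 0.63, adjusted p = 0.0238). The 2 MCAO/R + Lrg1-/- libraries with at least 20 fibroblasts had 647 and 2269 CPM. In endothelium Timp1 rose in both genotypes, from 0.908–1.10 to 9.15 and 26.1 CPM (4.21 ± 0.55, adjusted p = 0.000269) and from 1.67–3.58 to 25–75.6 CPM (4.30 ± 0.55, adjusted p = 0.000524). Aspg was at 29.2 and 53.6 CPM in fibroblasts of the MCAO/R + WT group, against 4.65 and 46.2 CPM in astrocytes.

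Ependymal cells, the ciliated lining of the ventricles, shared several members with astrocytes. Gfap rose there from 83.8, 105 and 110.2 CPM to 501 and 563 CPM in the wild type (2.41 ± 0.37, adjusted p = 0.0189) and from 21.7, 42.8 and 45.8 CPM to 306, 570.0 and 1014 CPM in the knockout (4.11 ± 0.40, adjusted p = 0.000408). Astrocytes exceeded ependymal cells in Gfap in 2 of the 5 MCAO/R libraries and 2 of the 6 sham libraries. Vim was higher in ependymal cells than in astrocytes in all 11 libraries, at 917–1478 CPM after sham and 2254–4528 CPM after MCAO/R. Serpina3n rose in ependymal cells to 308 and 339 CPM in the wild type (7.30 ± 0.59, adjusted p = 0.000109). The highest mean Vim level of the sham + WT group was that of vascular smooth muscle (3247–3360 CPM), where its change after MCAO/R did not pass the test.

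Among the named cell types, Cd44 had its highest mean levels in neutrophils and monocytes or monocyte-derived cells. Neutrophils of the MCAO/R + WT group had 1735 and 2028 CPM, and monocytes or monocyte-derived cells of the sham + WT group 2341, 2704 and 2782 CPM. With the MCAO/R + WT libraries pooled, 58.4% of the Cd44 UMIs were nevertheless in cells without a name. A cluster led by Lpl and Spp1, which was left unnamed because its scores for microglia and monocyte markers were too close, held 52.5% of the pooled Cd44 UMIs, with levels of 315 and 156 CPM for the 2 libraries. These pooled shares lean on replicate 1. It had 1942 unnamed cells and 111 CPM of Cd44 over all its cells, against 389 cells and 23.9 CPM in replicate 2. In knockout mice after MCAO/R the same cluster held 12.1% of the pooled Cd44 UMIs. Microglia were at 14.2, 14.2 and 17.3 CPM in the sham + WT group and at 29.6 and 42.0 CPM after MCAO/R (1.18 ± 0.28, adjusted p = 0.00643). Knockout microglia had more Cd44 already after sham, at 72, 109 and 124 CPM (2.54 ± 0.27, adjusted p = 1.54e-05). After MCAO/R they were at 70, 129 and 151 CPM, which overlapped their sham levels (0.23 ± 0.25, adjusted p = 0.524). Between genotypes after MCAO/R, 29 of 125 pairs of a member and another cell type were higher in the knockouts and 3 lower, where 6.54% and 5.96% of all pairs were. Without MCAO/R + WT replicate 2 the count was 5 higher and 1 lower of 123 pairs, and with only the 2 groups in the fit it was 12 higher and 1 lower of 127. After sham 7 of 109 pairs were higher and 2 lower, near the 4.47% and 5.30% of all pairs. Pairs entered through a filter over all 4 groups, so some were sparse in both sham groups. With only the 2 sham groups in the fit the count was 11 higher and 4 lower of 56 pairs. DESeq2 gave 14 higher and 4 lower of 109, and the shares of all pairs in these 2 settings are not given here. Of the 29 pairs that were higher after MCAO/R 7 were of Cd44, 7 of Serpina3n and 6 of Vim. Neutrophil markers were higher in knockout astrocytes after MCAO/R, as given above, and the part of such RNA in the other cell types was not tested.

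**Figure D4:**
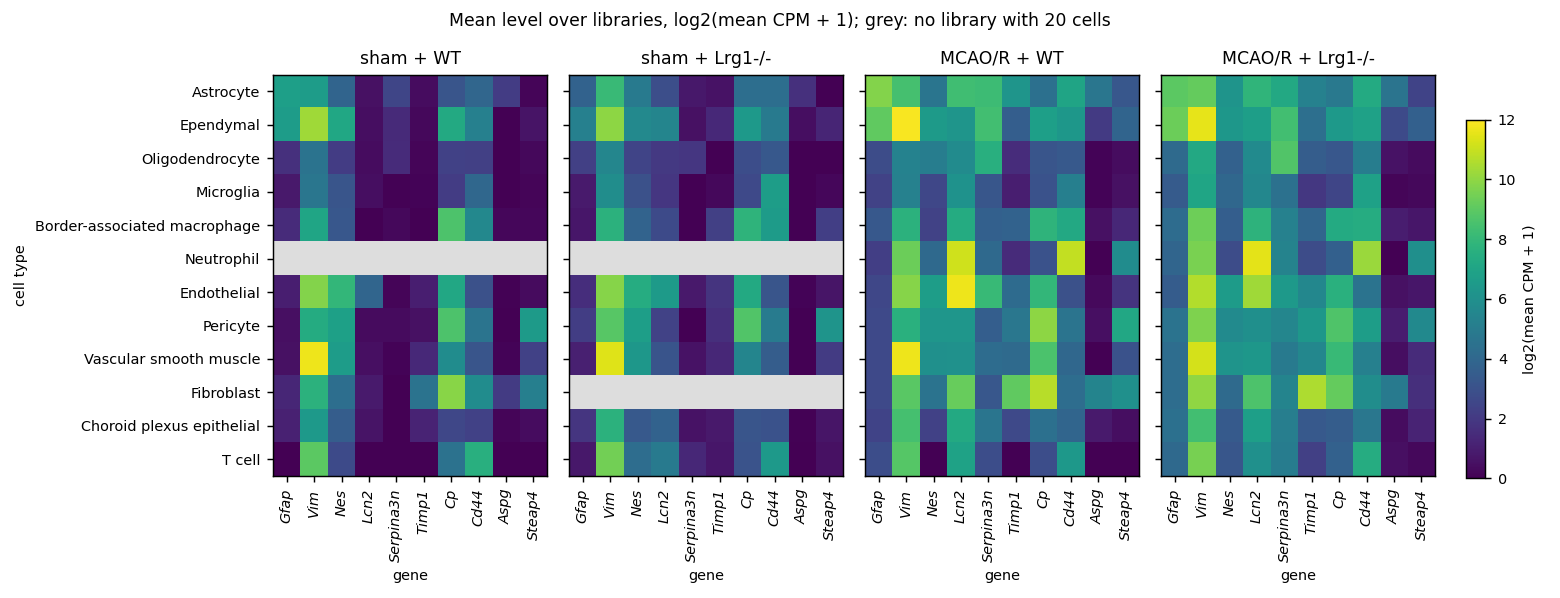
Mean level over the libraries of a group, as log2(mean CPM + 1) by colour, for the 10 genes (horizontal axis) in the cell types with the most to show (vertical axis), with 1 panel per group and grey where no library held 20 cells. Lcn2 brightens from sham to MCAO/R down almost the whole column, with endothelium at a mean of 3340 CPM in the MCAO/R + WT panel, whereas Cp is brightest in fibroblasts there (1691 CPM) and Cd44 in neutrophils (1882 CPM).

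Related genes were examined in astrocytes as lists. Of 4 other pan-reactive genes, Osmr, the oncostatin M receptor, rose in the wild type (3.70 ± 0.67, adjusted p = 0.0156) and none passed edgeR's test in the knockout, where 1 gene had an unadjusted p below 0.05 (as had 1946 of all 11289 genes) and DESeq2 called 1. Of 11 tested genes from the list of reactive genes after ischaemia (A2), 4 rose in the wild type: Cd109 (4.31 ± 0.59), Slc10a6 (7.67 ± 1.31), Emp1 (3.50 ± 0.76) and Tgm1 (8.15 ± 1.79). Of 11 tested genes from the list of reactive genes after lipopolysaccharide (A1), 4 rose as well: Fkbp5 (6.39 ± 0.55), Fbln5 (3.64 ± 0.57), Serping1 (4.24 ± 0.77) and Gbp2 (5.05 ± 1.18). Of all genes 1.50% rose in that comparison and 0.496% in the knockout one. None of either list fell, and their median log2 fold changes were 3.50 and 1.51, beside 0.01 over all genes. In the knockouts Fkbp5, a chaperone that glucocorticoids induce, was the 1 gene of the A1 list that rose (3.05 ± 0.60, adjusted p = 0.0403). None of the A2 list passed edgeR's test there, although 8 of its 11 genes had an unadjusted p below 0.05, beside the 1946 of 11289 over all genes, and DESeq2 called 4 of them higher. The medians there were 4.14 for the A2 list and 0.53 for the A1 list. Between genotypes after MCAO/R, Cxcl10, an interferon-induced chemokine among the pan-reactive genes (-3.97 ± 0.94, adjusted p = 0.0331), and Fkbp5 (-1.89 ± 0.46, adjusted p = 0.0378) were lower in the knockouts.

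Of 9 genes of the gp130 and Stat3 pathway, which carries the signals of interleukin-6-type cytokines, Cebpd, a transcription factor of the acute phase, rose in the wild type (3.08 ± 0.42, adjusted p = 0.00257). None of the 9 passed edgeR's test in the knockout, where 2 had an unadjusted p below 0.05 (as had 1946 of all 11289 genes) and DESeq2 called 1. Cntfr, the receptor of ciliary neurotrophic factor, was lower in knockout astrocytes after MCAO/R (-1.47 ± 0.32, adjusted p = 0.0268). Socs3, an inhibitor of that pathway, was higher in knockout than in wild-type astrocytes after sham (1.74 ± 0.37, adjusted p = 0.0219). Among 7 tested partners of the members, Spp1, which encodes the Cd44 ligand osteopontin, rose in the wild type (5.71 ± 0.89, adjusted p = 0.00680) and in the knockout (8.45 ± 1.02, adjusted p = 0.0118). It was also higher in the knockout than in the wild type after MCAO/R (3.88 ± 0.77, adjusted p = 0.0199). Spp1 was also a leading gene of an unnamed cluster with 1705 MCAO/R + WT and 3037 MCAO/R + Lrg1-/- cells. The part of RNA from such cells in the astrocyte sums was not tested. The intermediate filament genes Des, for desmin (3.12 ± 0.66, adjusted p = 0.0226), and Synm, for synemin (1.48 ± 0.37, adjusted p = 0.0425), were higher in the knockouts after sham. Of all genes, 1.50% rose with MCAO/R in the wild type and 0.496% in the knockout. Between genotypes, 2.65% were higher in the knockouts after MCAO/R and 2.75% after sham. No partner fell in edgeR's test in any of the 4 comparisons. None of the 8 immediate early genes of the dissociation response passed edgeR's test in any of the 4 comparisons. Of these 8, unadjusted p-values below 0.05 were found in 3 genes for the knockouts between MCAO/R and sham and in 3 genes between genotypes after sham, where 1946 and 2238 of all 11289 genes had one, and DESeq2 called 1 higher in the latter.

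The genes whose levels most resembled those of each member were ranked by Pearson's r of log2(CPM + 1) over 168 pairs of a library and a cell type, among 15874 genes. These values describe the data only, since cells of the same library share its depth and free RNA. Gfap was most like Mlc1, a membrane protein of astrocyte endfeet (r = 0.73), and the gate gene Aqp4 (r = 0.73). Aspg was most like Gjb6, the astrocyte gap junction protein connexin 30 (r = 0.74). Serpina3n and Lcn2 resembled each other (r = 0.77), and Serpina3n and Timp1 both resembled Spp1 (r = 0.70 and 0.71). Lcn2 was most like Ctla2a (r = 0.79), Vim like Plec, which links filaments to junctions (r = 0.88), and Cd44 like Antxr2 (r = 0.81). Cp and Nes both resembled Uaca (r = 0.80 and 0.77), and Steap4 was most like Pla1a (r = 0.77).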

How the data were processed

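Right brains of 11 mice were profiled with the 10x Genomics single-cell 3′ chemistry. The deposited matrices hold raw UMI counts by gene and barcode, which the authors made with Cell Ranger (version 7.0.1 in the matrix headers). The submitters' processing notes name Cell Ranger, STAR and mm10. Per library 5650–36858 barcodes held 37159497–171813031 UMIs. The 3 sham + Lrg1-/- libraries and MCAO/R + Lrg1-/- replicate 1 had round barcode numbers and lowest UMIs of 551–770 per barcode, against 500 elsewhere, and the effect of this was not tested. At most 0.488–1.24% of the barcodes of a library also occurred in another library.

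From these, barcodes with over 500 genes, over 1000 UMIs and under 25% mitochondrial UMIs were kept, the 6% with the highest doublet scores per library were removed, and 124491 cells remained. Own code computed 2000 variable genes, 15 principal components and 3 neighbours per mouse, and Leiden clusters at resolution 2.0 (igraph 0.11.9, Python 3.11.15). Clusters were named from marker lists, under rules set after the clusters were seen, and 28999 cells stayed unnamed. The members and gene lists were chosen with earlier results of these data known.

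Counts were summed per library and cell type (at least 20 cells) and fitted with edgeR 4.0.16 (R 4.3.3): TMM normalization, filterByExpr and the quasi-likelihood test, 4 groups in 1 fit without a replicate block. The test is two-sided, and SE is the log2 fold change divided by the root of F. Calls required an adjusted p (Benjamini-Hochberg, over all genes tested) below 0.05 and a natural-log fold above 0.25. All members and, per list and comparison, at most 6 called genes with the smallest p are named, with up to 3 most similar genes per member. Fibroblasts had no sham + Lrg1-/- library, neutrophils no sham library. In sums simulated for the MCAO/R + WT and sham + WT comparison (10696 genes) the test called 96.0% of 100 genes changed 4-fold, 100% of 100 changed 16-fold and 0.114% of unchanged genes. The changed genes were drawn from those above the median abundance and changed by the same fold in both MCAO/R + WT libraries. These rates therefore do not cover sparse members or members whose MCAO/R + WT libraries were far apart. Deviations from the group means had r from -0.31 to 0.22 between same-numbered libraries (median 0.06, 5 of 13 pairs over 0.1). Between libraries with other numbers r was -0.24 to 0.33 (median -0.03, 7 of 32 pairs over 0.1). So few pairs cannot decide whether same-numbered libraries deviated together. Alternatives were RLE scaling, no filter, DESeq2 1.42.0, a replicate block, single libraries left out, the 2 groups alone, doublets kept, a 10% mitochondrial limit, resolution 0.3, a gate per cell, and, chosen after seeing the data, cells with over 3000 UMIs. Gene positions are from GENCODE M21 and promoters from RefSeq, both on GRCm38.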

Additional observations from a re-analysis of the deposited data

Results flagged for a closer look

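Signal of 7 of the 10 genes appeared in cells that none of the comparisons used. A small cluster led by S100a6 and Cd109 was left without a name and held 120 cells of MCAO/R + Lrg1-/- replicate 2, 88 cells of MCAO/R + Lrg1-/- replicate 5 and 36 cells of sham + WT replicate 1, the only sham library with at least 20 of its cells. Gfap was at 709.9 and 669.7 CPM in the MCAO/R + Lrg1-/- replicates 2 and 5, against 118 CPM in the sham library. Vim was at 7033 and 4917 CPM against 736 CPM, Cd44 at 509 and 501 CPM against 13.2 CPM, and Nes at 465 and 345 CPM against 52.6 CPM. Serpina3n was at 359.7 and 289 CPM, Lcn2 at 109 and 235 CPM and Timp1 at 176 and 97.3 CPM, each with no UMI in the sham library, where 3 counts would give 39.5 CPM. Steap4, Aspg and Cp were not above that floor and the sham level. The share of all genes that met the same rule is not given here, so the 7 of 10 cannot be read as a trait of the members. In these cells the 4 astrocyte gate genes summed to 448 and 551 CPM after MCAO/R and to 855 CPM after sham, and the 5 ependymal markers to 936 and 1349 CPM after MCAO/R and to 3893 CPM after sham. The 36 sham cells held 76037 UMIs in all and the cells of the 2 MCAO/R + Lrg1-/- libraries 3000097, so that the sham cells were also much shallower. The difference in these genes between MCAO/R and sham was not tested, since the sham group of the same genotype had no such library.

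The larger unnamed cluster led by Lpl and Spp1 held 1705 cells of the MCAO/R + WT group and 3037 of the MCAO/R + Lrg1-/- group, but at most 11 cells of any sham library. Cd44 was at 315 and 156 CPM there in the MCAO/R + WT group and at 127–198 CPM in the MCAO/R + Lrg1-/- group, Vim at 393 and 105 CPM and at 363–537 CPM, and Lcn2 at 112 and 85.3 CPM and at 11.2–85.7 CPM. With so few sham cells, no level without injury was set beside these.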

How the results depend on the processing

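Over the alternatives, Serpina3n and Lcn2 in wild-type astrocytes kept their direction and their call in all 21, at log2 fold changes of 3.93–6.85 and 6.35–12.32. Without MCAO/R + WT replicate 1 the comparison rested on replicate 2, where these levels were not particular to astrocytes. Lcn2 was there at 45.9 CPM in astrocytes, 44.1 CPM in microglia and 35.9 CPM in oligodendrocytes. Serpina3n was at 68.2 CPM in astrocytes, 102 CPM in oligodendrocytes and 8.49 CPM in microglia. In replicate 1 Lcn2 was also lower in astrocytes than over all cells (596 against 1131 CPM), whereas Serpina3n was higher (519.8 against 106 CPM). The part of free RNA in these levels was not tested. In order of the comparisons (MCAO/R against sham in wild type, the same in knockouts, knockout against wild type after MCAO/R, the same after sham), members called in astrocytes were 5, 2, 0 and 2, with an interaction count of 0. Without the filter on low counts they were 9, 8, 3 and 5, with 2 for the interaction, and called pairs in other cell types, 42, 45, 32 and 9 before, were 70, 73, 51 and 28. With the replicate block, the counts were 2 in wild type and 0 after sham, and 3 pairs in other types after sham. With only the groups compared in the fit they were 2 of 8 tested in wild type and 4 of 7 in knockouts. Called pairs between genotypes were then 13 of 127 after MCAO/R and 15 of 56 after sham. DESeq2 gave 5 in knockouts and 18 pairs after sham. The gate per cell gave 1 after MCAO/R, and keeping doublets, the 10% mitochondrial limit and resolution 0.3 gave 1 each after sham. The causes were not tested. The share of all genes called in each alternative is not given here, so these counts have no background. Leaving out single libraries gave 2–8, 0–6, 0–3, 0–2 and 0 members in astrocytes (lowest in wild type without MCAO/R + WT replicate 1 or any sham + WT library, highest without MCAO/R + WT replicate 2) and 25–49, 28–50, 6–33 and 2–14 pairs, the lowest of these without MCAO/R + WT replicate 1, sham + Lrg1-/- replicate 2, MCAO/R + WT replicate 2 and sham + WT replicate 1. The replicate block is no known pairing, since the labels give same-numbered libraries only a shared number. Of 929 values of single members, 788 kept direction and call, 49 lost a call, 40 gained one and 52 reversed. With the gate per cell the reversed values were -0.42 for Nes in wild type, 0.15 for Gfap, 0.11 for Serpina3n, 0.13 for Timp1 and -0.60 for Aspg after MCAO/R, -0.62 for Nes and -0.05 for Cp after sham, and 0.63 for Vim, 0.89 for Cd44 and 0.33 for Cp in the interaction. With the replicate block they were 0.34 for Lcn2 and 1.19 for Timp1 after MCAO/R, 0.12 for Aspg after sham, and 1.0 for Cd44 and 0.16 for Timp1 in the interaction. Aspg after MCAO/R was -0.10 without the filter, -0.05 with DESeq2, -0.02 with doublets and -0.04 at the 10% limit, and Cd44 in the interaction was 0.18 with doublets. Leaving out single libraries, the members that reversed ranged in wild type from -0.45 to 4.06 (Cd44) and -0.28 to 1.45 (Nes), and in knockouts from -0.05 to 1.54 (Cp). Between genotypes after MCAO/R they ranged from -1.50 to 0.87 (Gfap), -1.78 to 1.14 (Serpina3n), -1.38 to 2.31 (Lcn2), -0.58 to 3.93 (Cd44), -1.99 to 4.81 (Timp1), -0.92 to 2.36 (Aspg) and -0.09 to 1.3 (Cp), and after sham from -0.86 to 1.09 (Cd44), -2.89 to 1.34 (Timp1) and -1.49 to 0.18 (Aspg). In the interaction they ranged from -1.50 to 0.05 (Vim), -1.23 to 3.28 (Cd44), -2.83 to 3.96 (Timp1), -0.61 to 2.69 (Aspg), -0.65 to 1.51 (Nes) and -1.39 to 0.20 (Cp). With 63–98 sham + Lrg1-/- astrocytes per library, Steap4, Timp1 and Serpina3n had 0 or 1 UMI in that group, so their folds there are poorly bounded.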
